A study of Homo sapiens with 12 samples.

Results

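The genes described here are 7 of the 43769 in the count table. RIGI, IFIH1 and DHX58 encode the cytosolic RNA helicases RIG-I, MDA5 and LGP2. MAVS encodes the mitochondrial adaptor of RIG-I and MDA5, DDX60 and DDX60L encode a pair of related helicases, and TLR3 encodes the endosomal receptor for double-stranded RNA. They were chosen by gene name and read in all 12 libraries, and all 7 passed the filter on low counts. RIGI, however, had been selected on its response in these same libraries, a weaker rise with IFNγ under doxycycline. Its differences between groups are therefore given as a description with no test, and the other 6 genes were tested.

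RIG-I recognizes short RNAs with uncapped ends and MDA5 recognizes long double-stranded RNA, and both pass the signal to MAVS. LGP2 lacks the signaling domains of the other two helicases and modulates their activity. MAVS recruits TRAF proteins and the kinases TBK1 and IKKε, which activate IRF3, IRF7 and NF-κB and lead to the production of type I and type III interferons. TLR3 reaches the same kinases from the endosome through its adaptor TICAM1. DDX60 has been described as a cofactor of RIG-I, and DDX60L is its neighbor and paralog. Several of these sensor genes are themselves interferon-stimulated, that is, switched on by transcription factors that interferon receptors activate.

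The libraries come from SK-N-DZ, a MYCN-amplified human neuroblastoma cell line, and per the methods from 1 clonal derivative that carries a lentiviral, doxycycline-inducible hairpin against ARID1A, a subunit of the SWI/SNF chromatin remodeling complex. There were 4 groups of 3 libraries: untreated control, doxycycline (4 days in total, per the labels), IFNγ (24 hours) and both agents. The labels name the libraries without doxycycline WT and those with it shARID1A, but by the methods the vector is present in all 4 groups. No doxycycline-treated line without the hairpin is among the 12 libraries, so effects of doxycycline, of the hairpin and of ARID1A loss cannot be told apart. The labels do not say that replicates were separate cultures, so p-values measure the spread between these libraries, which may be technical.

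Total counts ranged from 16469832 to 21790869 per library, and 3 counts, taken as the detection floor, correspond to 0.135 to 0.187 CPM, the count relative to the scaled library size. These floors cover counting error only. ARID1A itself was measured at 197, 186 and 165 CPM in the control libraries, 197, 159 and 158 CPM with doxycycline, 192, 203 and 194 CPM with IFNγ, and 151, 133 and 148 CPM with both. Doxycycline alone did not separate the ARID1A values from the control (log2 difference -0.09 ± 0.11 SE, edgeR adjusted p = 0.788), so the labelled knockdown was not seen in these RNA counts there. The paper reports decreased ARID1A protein in its SK-N-DZ knockdown line by Western blot, and it also measured ARID1A by qPCR. Under IFNγ the doxycycline libraries were all lower, by a log2 difference of -0.44 ± 0.11 SE that missed the threshold (edgeR adjusted p = 0.115) and passed it with the replicate number as a block (adjusted p = 0.0111). In that comparison 16.6% of all tested genes had groups that did not overlap, and 0.67% were called without the block and 10.5% with it. Groups are therefore named below by their treatment. All 9 adrenergic neuroblastoma markers examined were detected, with summed levels of 4724 to 5455 CPM in the control, 4467 to 5075 CPM with doxycycline, 4621 to 5583 CPM with IFNγ and 4222 to 5516 CPM with both. MYCN was at 772 to 1496 CPM. TH, the first enzyme of catecholamine synthesis, had lower means with doxycycline, at 41.7 ± 36.1 CPM in the control and 3.02 ± 3.49 CPM with doxycycline, and 27.5 ± 28.9 CPM with IFNγ and 1.91 ± 1.16 CPM with both (SD, n = 3). DBH, a later enzyme of the same pathway, was at 345 ± 89.7, 181 ± 165, 360 ± 106 and 201 ± 187 CPM in the same order. Of the leukocyte, endothelial and epithelial markers, 4 of 7, 2 of 3 and 2 of 3 exceeded 3 counts in some library. Their summed levels reached at most 1.496, 0.811, 0.654 and 1.40 CPM for leukocytes in the control, doxycycline, IFNγ and combined groups. In the same order they reached 2.27, 1.81, 2.95 and 2.00 CPM for endothelium, nearly all of it VWF, and 1.79, 2.95, 2.35 and 2.72 CPM for epithelium. CD3E and PECAM1 had no count in any library. The summed level of 6 fibroblast and Schwann cell markers, most of it PDGFRB, was 37.8 to 59.5 CPM in the control, 25.5 to 51.8 CPM with doxycycline, 69.9 to 114 CPM with IFNγ and 51.6 to 88.6 CPM with both. The part of these markers in the results below was not tested. In bulk RNA, fewer cells that express a gene and less RNA per cell cannot be told apart.

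Because the members differ widely in how they respond to IFNγ, the sequences upstream of 4 of them are shown first. RefSeq promoter windows (GRCh38.p14, from 250 bases before to 50 bases after the annotated start) were matched for 6 of the 7 genes, and DHX58 had no entry. The 250 bases before the start are printed, 5′ to 3′ on the strand of the gene. Capitals mark 3 patterns that were searched on both strands: a pair of GAAA boxes 2 bases apart, which is the core of the interferon-stimulated response element, a pair of GAAA boxes 1 base apart, and TTCNNNGAA, the gamma-activated site of IFNγ-responsive genes. The spacing of 1 base was added after the RIGI sequence had been seen. The windows lie at chr9:32526197-32526446 (minus strand) for RIGI, chr2:162318685-162318934 (minus strand) for IFIH1, chr4:168318753-168319002 (minus strand) for DDX60 and chr4:168480493-168480742 (minus strand) for DDX60L.
RIGI: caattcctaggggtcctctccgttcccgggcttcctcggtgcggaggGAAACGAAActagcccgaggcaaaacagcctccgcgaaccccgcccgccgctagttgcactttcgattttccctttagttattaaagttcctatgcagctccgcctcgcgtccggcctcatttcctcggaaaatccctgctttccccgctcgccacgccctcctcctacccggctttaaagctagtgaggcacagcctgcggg
IFIH1: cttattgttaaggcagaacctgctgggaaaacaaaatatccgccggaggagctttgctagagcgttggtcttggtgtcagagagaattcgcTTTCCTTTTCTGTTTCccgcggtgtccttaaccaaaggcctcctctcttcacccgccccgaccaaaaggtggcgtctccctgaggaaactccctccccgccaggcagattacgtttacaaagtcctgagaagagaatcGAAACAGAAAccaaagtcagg
DDX60: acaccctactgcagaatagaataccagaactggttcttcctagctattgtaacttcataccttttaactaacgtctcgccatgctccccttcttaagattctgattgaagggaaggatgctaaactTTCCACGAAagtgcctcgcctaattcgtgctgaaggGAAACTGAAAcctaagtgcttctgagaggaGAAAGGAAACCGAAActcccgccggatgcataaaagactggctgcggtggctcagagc
DDX60L: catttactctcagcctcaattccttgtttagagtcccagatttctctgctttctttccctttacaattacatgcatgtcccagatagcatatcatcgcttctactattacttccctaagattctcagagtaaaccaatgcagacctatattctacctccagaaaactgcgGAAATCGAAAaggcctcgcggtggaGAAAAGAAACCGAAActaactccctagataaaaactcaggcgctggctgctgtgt

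The RIGI window held no pair of boxes 2 bases apart and a pair 1 base apart at 203 bases before the start. IFIH1 held the 2-base pair at 159, 153 and 21 bases before the start, where the first 2 overlap each other on the opposite strand. DDX60 held it at 88 and 53 bases, with a 1-base pair at 58 bases that overlaps the second match, and a gamma-activated site at 124 bases. DDX60L had the same arrangement of boxes, with the 2-base pair at 80 and 50 bases before the start and the 1-base pair at 55 bases, but no gamma-activated site. In the TLR3 window, which is not printed, a 2-base pair on the opposite strand began 4 bases before the start, and gamma-activated sites lay at 178 and 50 bases. The MAVS window held none of the 3 patterns. Over all 35116 RefSeq windows of the same length, the 2-base pair occurred in 3.57%, the 1-base pair in 3.12% and the gamma-activated site in 7.66%. These matches describe the letters in the windows and are not evidence of binding.

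In the absence of IFNγ, SK-N-DZ cells contained MAVS RNA and little or no RNA of the sensors, as the plot of CPM by library shows. RIGI was the only sensor above 1 CPM in the control, with values of 1.54, 2.14 and 1.68 CPM. DHX58 had 1, 1 and 6 counts in the control libraries and 7, 6 and 5 counts with doxycycline. IFIH1 had 3 counts in 1 control library and none in the other 5 libraries without IFNγ. DDX60 and TLR3 had no count in any of these 6 libraries, which allows at most 0.187 CPM in each. DDX60L had 4, 3 and 3 counts in the control libraries and none with doxycycline, a difference at the edge of detection that missed the threshold in edgeR (adjusted p = 0.225) and passed it with the replicate block (adjusted p = 0.0172).

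**Figure D1:**
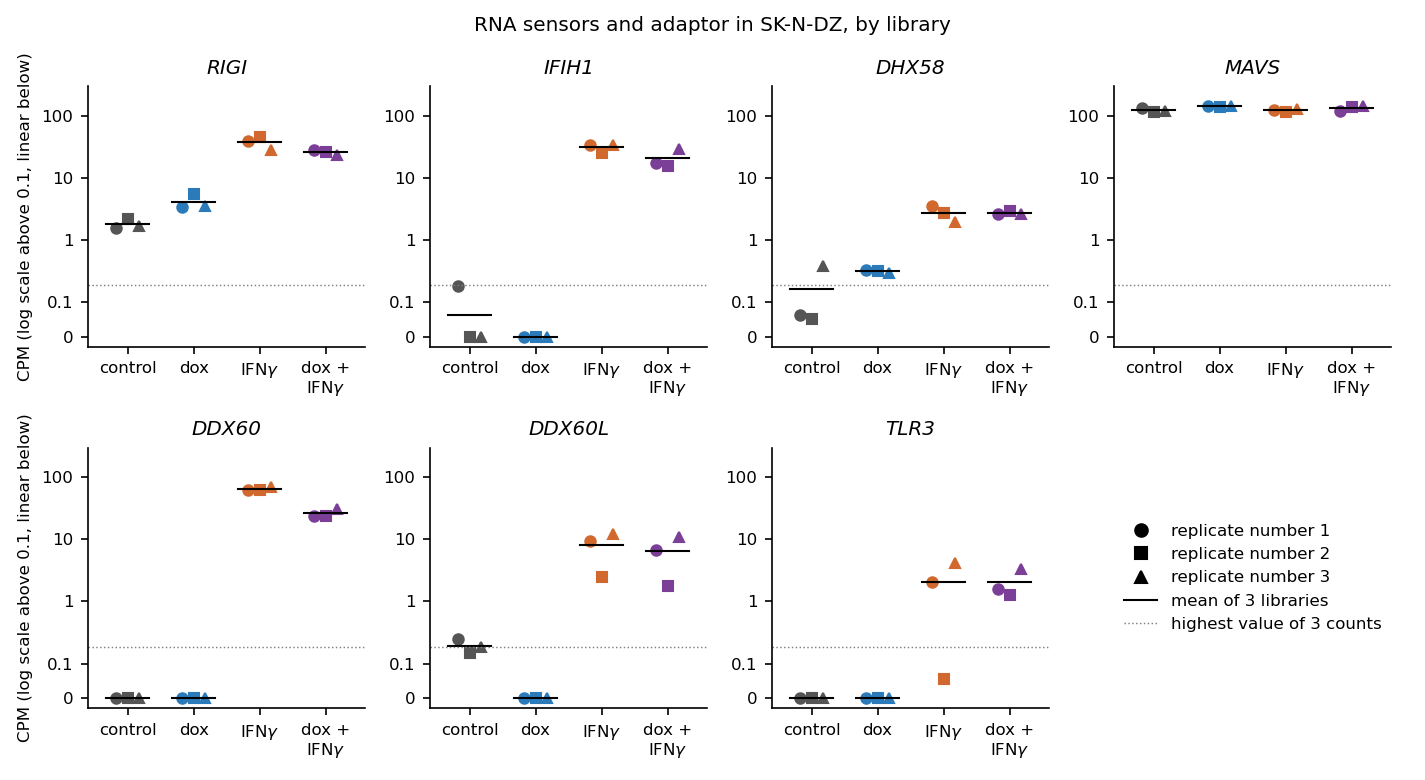
CPM of each of the 7 genes in the 12 libraries, on an axis that is logarithmic above 0.1 CPM and linear below. Points are single libraries with a marker for each replicate number, bars are means of 3 and the dotted line marks 3 counts in the shallowest library; MAVS stays between 113 and 145 CPM in every group, while the other 6 genes are higher in the libraries with IFNγ, except for TLR3 at 1 count in 1 IFNγ library.

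RIGI, the sensor of uncapped RNA ends, lies at chr9:32455705-32526324 (minus strand, GENCODE 29 on GRCh38, as for the other genes). With IFNγ alone it was measured at 39.6, 45.4 and 28.0 CPM, a mean of 37.7 ± 8.89 CPM (SD, n = 3) against 1.78 ± 0.312 CPM in the control. All 3 libraries with IFNγ were above all controls, by 21.1-fold in the means and by a fitted log2 fold change of 4.39 ± 0.26 (SE). With doxycycline the starting level was 3.43, 5.49 and 3.47 CPM, above every control library. Doxycycline and control groups did not overlap for 19.2% of all tested genes. With both agents RIGI reached 28.4, 25.9 and 23.6 CPM, a mean of 26.0 ± 2.44 CPM, which is 6.285-fold above doxycycline alone (log2 fold change 2.65 ± 0.24 SE).

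The difference between the IFNγ responses of RIGI in the doxycycline and no-doxycycline arms was -1.74 ± 0.33 (log2, SE). This is the quantity for which RIGI was chosen and it has no test here. It was made of a higher level before IFNγ (log2 1.20 ± 0.25 SE for doxycycline against control) and a lower level after it (log2 -0.54 ± 0.22 SE for both agents against IFNγ). The part before IFNγ was the larger of the pair, and it rests on 25, 43 and 27 counts in the control against 72, 106 and 60 counts with doxycycline. After IFNγ the ranges of RIGI overlapped, since the highest library with both agents (28.4 CPM) was above the lowest with IFNγ alone (28.0 CPM). Within replicate numbers 1, 2 and 3, RIGI with both agents was at 71.7%, 57.0% and 84.2% of its level with IFNγ alone. When each library was left out in turn the difference of responses ran from -1.89 to -1.48. This range comes from the libraries on which RIGI was chosen, so it is a description and no support for the difference.

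**Figure D2:**
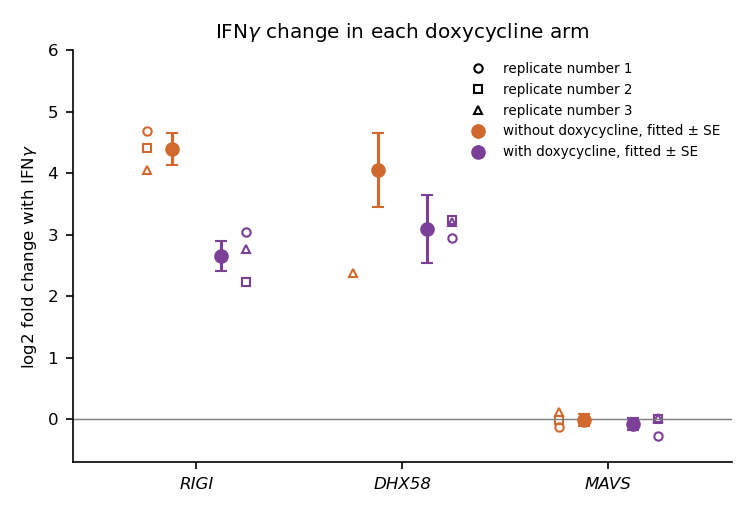
Log2 fold change with IFNγ in the arms without and with doxycycline for the 3 genes with counts in all 4 groups. Filled points are fitted values with their SE, and open points are ratios within a replicate number, shown where both libraries had over 3 counts; RIGI is at 4.39 without and 2.65 with doxycycline, DHX58 at 4.05 and 3.10, and MAVS near 0 in both arms.

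IFIH1, the gene of MDA5 (chr2:162267079-162318703, minus strand), was measured at 34.1, 25.0 and 34.1 CPM with IFNγ. Against the 3 counts of the control libraries together this is a ratio of 545.5, with an exact 95% counting interval of 186 to 2650. All 3 counts came from control replicate 1, and without that library the control has no count and the rise is at least 166-fold (fitted log2 12.23 in place of 8.92). The rise passed the test (edgeR adjusted p = 7.09e-05), in a comparison in which 2.21% of the 15828 tested genes were called. With both agents IFIH1 was at 17.4, 15.7 and 29.4 CPM, at least 120-fold above doxycycline alone, where it had no count (edgeR adjusted p = 7.71e-05, with 1.72% of tested genes called in that comparison). These entries need a caution that holds for 5 of the 7 genes. IFIH1, DHX58, DDX60, DDX60L and TLR3 had no library without IFNγ at 10 or more counts and entered the test through their IFNγ libraries, so a difference was built into their selection. Their p-values for a rise with IFNγ are given as a description and not as support.

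Between the IFNγ groups, IFIH1 overlapped: replicate number 3 with both agents lay above replicate number 2 with IFNγ alone. Its level with both agents was 51.0%, 62.9% and 86.3% of that with IFNγ alone in replicate numbers 1, 2 and 3. The fitted difference was log2 -0.57 ± 0.40 SE and missed the threshold (edgeR adjusted p = 0.649), and the interval of 2 SE ran from -1.37 to 0.22.

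DHX58, the gene of LGP2 (chr17:42101404-42112733, minus strand), stayed low throughout. It reached 3.46, 2.73 and 1.94 CPM with IFNγ and 2.57, 2.92 and 2.66 CPM with both agents. It rose with IFNγ without doxycycline (log2 4.05 ± 0.60 SE, edgeR adjusted p = 0.00279, and 5.46 without control replicate 3) and with it (log2 3.10 ± 0.55 SE, edgeR adjusted p = 0.0123). The second call rests on few counts, and leaving out doxycycline replicate 1, 2 or 3 gave adjusted p = 0.0713, 0.0601 and 0.067. As with IFIH1, DHX58 entered through its IFNγ libraries, so these p-values are no support for a rise. The IFNγ groups did not separate (log2 0.00 ± 0.48 SE, interval of 2 SE from -0.97 to 0.97, edgeR adjusted p = 0.999). The difference of its responses between arms was -0.96 ± 0.78 (log2, SE), of the same sign as that of RIGI with an interval of 2 SE from -2.52 to 0.60 that includes 0. Without control replicate 3, which held 6 of the 8 control counts, it was -2.37.

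MAVS, the adaptor (chr20:3846799-3876123, plus strand), had no called change in any comparison, with or without the replicate block. Its levels were 133, 113 and 119 CPM in the control, 145, 136 and 142 CPM with doxycycline, 121, 113 and 130 CPM with IFNγ, and 120, 137 and 144 CPM with both. IFNγ changed it by log2 -0.01 ± 0.10 SE without doxycycline (edgeR adjusted p = 1.00, interval of 2 SE from -0.20 to 0.19) and by -0.08 ± 0.10 SE with it (adjusted p = 1.00, interval from -0.27 to 0.12). The doxycycline libraries were all above the control libraries, by log2 0.21 ± 0.10 SE, which did not pass the test (edgeR adjusted p = 0.365). Groups that do not overlap occurred for 19.2% of tested genes in the comparison of doxycycline with control, in which 1.23% of genes were called.

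DDX60 (chr4:168216293-168318807, minus strand) went from no count in 6 libraries to one of the higher levels of the set. With IFNγ it was measured at 62.3, 61.2 and 70.6 CPM, a mean of 64.7 ± 5.15 CPM (SD, n = 3) and at least 346-fold above the control floor (edgeR adjusted p = 1.98e-06). With both agents it was at 24.1, 23.5 and 31.0 CPM, a mean of 26.2 ± 4.20 CPM and at least 151-fold above the floor with doxycycline (edgeR adjusted p = 4.10e-06). DDX60 entered the test through its IFNγ libraries, so neither p-value is support for its rise. The group with both agents lay wholly below the group with IFNγ alone.

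DDX60 was the member with the clearest difference between the IFNγ groups. The fitted log2 difference of both agents against IFNγ alone was -1.30 ± 0.16 SE (edgeR adjusted p = 0.0246), and it was the only call among the 6 tested members, in a comparison in which 0.67% of all tested genes were called and 16.6% had groups that did not overlap. The level with both agents was 38.6%, 38.3% and 43.9% of that with IFNγ alone in replicate numbers 1, 2 and 3. The size of the difference was stable while its call was not. Leaving out single libraries kept it between -1.45 and -1.22, but the adjusted p was 0.104, 0.0924 and 0.125 without IFNγ replicate 1, 2 or 3, and 0.109 and 0.0704 without replicate 1 or 2 of both agents. Fitted on the 6 libraries of these groups alone the adjusted p was 0.077, and with the replicate block it was 0.00151.

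**Figure D3:**
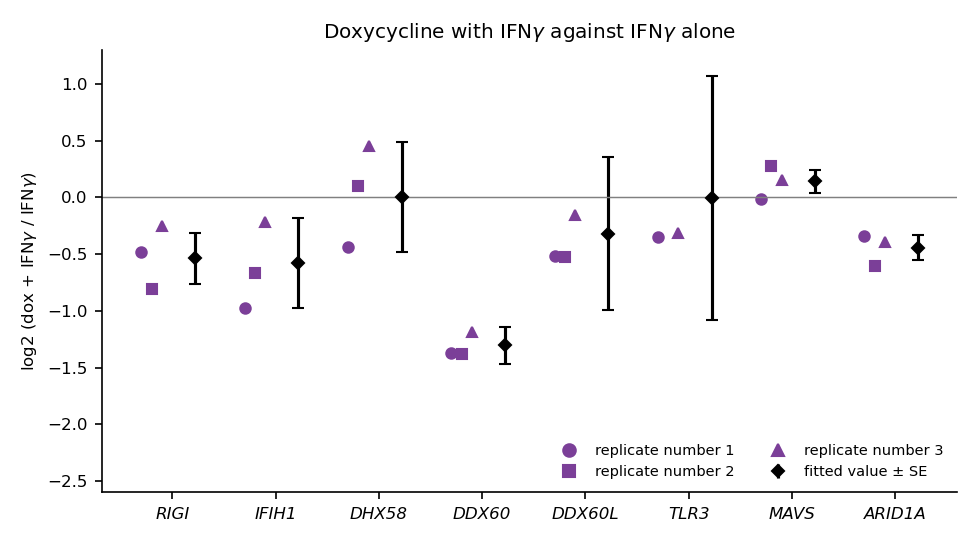
Log2 ratio of the level with doxycycline plus IFNγ to that with IFNγ alone for the 7 genes and ARID1A. Colored points are ratios within each replicate number, shown where both libraries had over 3 counts, and diamonds are fitted values with their SE; the 3 DDX60 ratios lie between -1.38 and -1.19, below those of every other gene shown.

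DDX60L, the paralog next to DDX60 (chr4:168356735-168537786, minus strand), was lower and more scattered. It was measured at 9.45, 2.51 and 12.1 CPM with IFNγ and 6.62, 1.74 and 10.9 CPM with both agents. Replicate number 2 was the lowest of its group both times. The rise over the control passed the test (log2 5.33 ± 0.88 SE, edgeR adjusted p = 0.0118), though not once control replicate 1, 2 or 3 was left out (adjusted p = 0.0707, 0.0789 and 0.0734). With both agents it was at least 36.9-fold above the floor with doxycycline (edgeR adjusted p = 0.00404). Because DDX60L also entered through its IFNγ libraries, these p-values are no support for a rise. The IFNγ groups overlapped (log2 -0.32 ± 0.68 SE, interval of 2 SE from -1.67 to 1.03, edgeR adjusted p = 0.921). Of the windows of 50 bases in DDX60 transcripts, 0.618% also occur in DDX60L, so few reads could be shared between the paralogs.

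TLR3 (chr4:186069152-186088069, plus strand) was the lowest member. With IFNγ it had 41, 1 and 78 counts (2.03, 0.0545 and 4.09 CPM), so the second library was under the detection floor. With both agents it had 31, 25 and 73 counts (1.59, 1.28 and 3.29 CPM). The means were at least 11-fold above the control floor and 11.8-fold above the doxycycline floor. Neither rise passed the test (edgeR adjusted p = 0.14 without and 0.163 with doxycycline), and both passed it with the replicate block (adjusted p = 0.0392 and 0.0323). Without IFNγ replicate 2 the values were 0.0134 and 0.0158. TLR3 too entered through its IFNγ libraries, so none of these p-values is support for a rise. Between the IFNγ groups the log2 difference was 0.00 ± 1.08 SE, with an interval of 2 SE from -2.15 to 2.15, which leaves its direction undetermined.

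To compare the genes with each other, CPM was divided by exon length in kb. With IFNγ the order of mean levels per kb was MAVS at 10.3, DDX60 at 9.59, RIGI at 8.66, IFIH1 at 6.08, DHX58 at 0.705, DDX60L at 0.658 and TLR3 at 0.306. Neighbors in this order overlapped in range, except for the step from IFIH1 (lowest library 4.90) to DHX58 (highest library 0.901). With both agents it was MAVS at 11.4, RIGI at 5.96, IFIH1 at 4.08, DDX60 at 3.88, DHX58 at 0.707, DDX60L at 0.527 and TLR3 at 0.305. In this order MAVS stood apart from RIGI, and DDX60 from DHX58, while the other neighbors overlapped. DDX60 thus stood beside MAVS with IFNγ and beside IFIH1 with both agents. MAVS has long untranslated exons, and per kb of coding sequence it stood further above the sensors, at 74.8 with IFNγ against 13.6 for RIGI, 12.6 for DDX60 and 10.1 for IFIH1, with RIGI and DDX60 changing places.

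**Figure D4:**
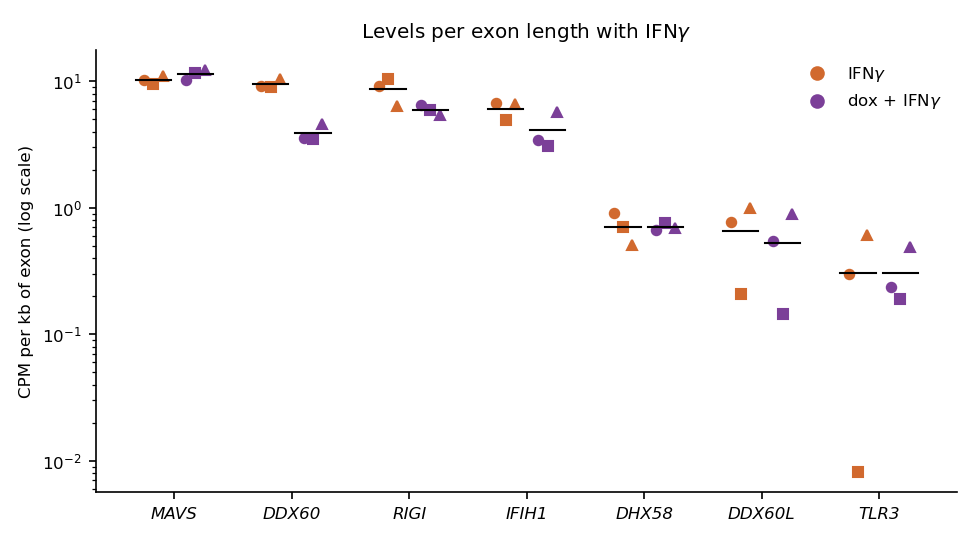
CPM per kb of exon for the 7 genes with IFNγ and with doxycycline plus IFNγ, on a logarithmic axis, with a marker shape for each replicate number and bars for means of 3. MAVS, DDX60, RIGI and IFIH1 lie above 3 CPM per kb in every library shown, and DHX58, DDX60L and TLR3 lie below 1.

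The rest of the RNA-sensing pathway was read from 6 fixed lists holding 108 genes, of which 85 were tested. Of the 85, 4 had no library without IFNγ at 10 or more counts and entered through their IFNγ libraries, and 3 of these (NLRC5, OAS1 and OAS3) are among the calls below. With IFNγ, 18 of the 85 rose and none fell, a share of 21.2% against the 2.21% of all tested genes (15 of 81 without those 4), and the median log2 fold change was 0.04 against -0.01 over all tested genes. With doxycycline present, IFNγ raised 16 and lowered none, a share of 18.8% against 1.72% (13 of 81 without those 4), with a median of 0.06 against -0.01. With the replicate block these became 19 higher and none lower, against 6.02% of all tested genes, and 17 higher and 1 lower, against 4.46%. The medians lay near that of all genes, and the calls came from a minority of the lists. Doxycycline itself gave 0 calls in edgeR among the 85, both without IFNγ (9 genes at an unadjusted p under 0.05, 2 calls in DESeq2) and with it (17 genes, 1 call in DESeq2), where 1.23% and 0.67% of all tested genes were called. With the replicate block these counts became 8 (3 higher, 5 lower), a share of 9.41% against 13.9% of all tested genes, and 12 (2 higher, 10 lower), a share of 14.1% against 10.5%. Values of single list genes below come from the fit without the block, and their calls can differ with it.

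Among 13 tested positive regulators of RIG-I and MDA5, 3 rose with IFNγ. TRIM25, a ubiquitin ligase that activates RIG-I, was at 25.5 ± 1.52 CPM in the control and 165 ± 33.2 CPM with IFNγ (log2 2.70 ± 0.23 SE), and at 17.6 ± 4.71 and 110 ± 24.4 CPM in the doxycycline arm (log2 2.65 ± 0.23 SE). ZC3HAV1, the zinc-finger antiviral protein, rose by log2 1.26 ± 0.14 SE and 1.28 ± 0.14 SE, while USP15, a deubiquitinase, was called without doxycycline (log2 0.64 ± 0.08 SE) and not with it (0.23 ± 0.08 SE, edgeR adjusted p = 0.383). RNF135, another ligase of RIG-I, was below the filter in every group.

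Of 22 tested negative regulators, NLRC5 and CYLD rose in both arms. NLRC5, better known as the transactivator of class I antigen presentation, went from 0.0615 ± 0.106 to 364 ± 62.4 CPM without doxycycline and from 0.157 ± 0.224 to 357 ± 16.6 CPM with it. CYLD, a deubiquitinase that restrains RIG-I signaling, rose by log2 1.09 ± 0.11 SE and 0.70 ± 0.11 SE.

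Behind the adaptors, 3 of 25 tested genes rose with IFNγ and 2 with IFNγ in the presence of doxycycline. IRF3, the transcription factor activated through MAVS, rose by log2 1.17 ± 0.16 SE and 1.12 ± 0.16 SE, and IRF7, its inducible relative, by 2.15 ± 0.22 SE and 1.82 ± 0.22 SE. CASP8 was called without doxycycline (log2 3.25 ± 0.52 SE) and not with it (2.12 ± 0.48 SE, edgeR adjusted p = 0.0615). The difference between these arms was not tested. TICAM1, the adaptor of TLR3, was at 4.91 ± 2.07 CPM in the control and 4.33 ± 0.794 CPM with IFNγ, with no call. UNC93B1, which carries endosomal receptors to their compartment, was below the filter.

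In the list of other RNA-binding sensors and effectors, 5 of 20 tested genes rose in each arm. OAS3, an oligoadenylate synthetase that is activated by double-stranded RNA and makes the activator of RNase L, had no count in the control and reached 49.1 ± 15.8 CPM with IFNγ and 26.4 ± 3.805 CPM with both agents. OAS1, of the same family, had no count without IFNγ and reached 3.5049 ± 2.04 and 1.0012 ± 0.65 CPM. EIF2AK2, the RNA-activated kinase PKR, rose by log2 1.47 ± 0.15 SE and 1.27 ± 0.15 SE. For OAS3 the difference between the IFNγ groups missed the threshold in the fit without the block (log2 -0.89, edgeR adjusted p = 0.234).

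Of the interferon-activated transcription factors, IRF1, STAT2, IRF9 and IRF2 rose in both arms. IRF1 went from 2.14 ± 0.288 to 411 ± 31.0 CPM without doxycycline and from 2.34 ± 0.505 to 367 ± 21.9 CPM with it. STAT2 rose by log2 2.51 ± 0.21 SE and 2.25 ± 0.21 SE, and IRF9, its partner at interferon-stimulated response elements, by 2.74 ± 0.39 SE and 2.13 ± 0.37 SE. The IRF9 level was higher with doxycycline both before IFNγ (1.98 ± 0.780 against 0.730 ± 0.255 CPM) and after it (8.71 ± 0.611 against 4.94 ± 1.48 CPM). None of these 4 was called between the IFNγ groups in the fit without the block (for IRF1, log2 -0.16, edgeR adjusted p = 0.694). The log2 difference was -0.30 for STAT2, -0.20 for IRF2 and 0.82 for IRF9 (edgeR adjusted p = 0.624, 0.799 and 0.385).

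**Figure D5:**
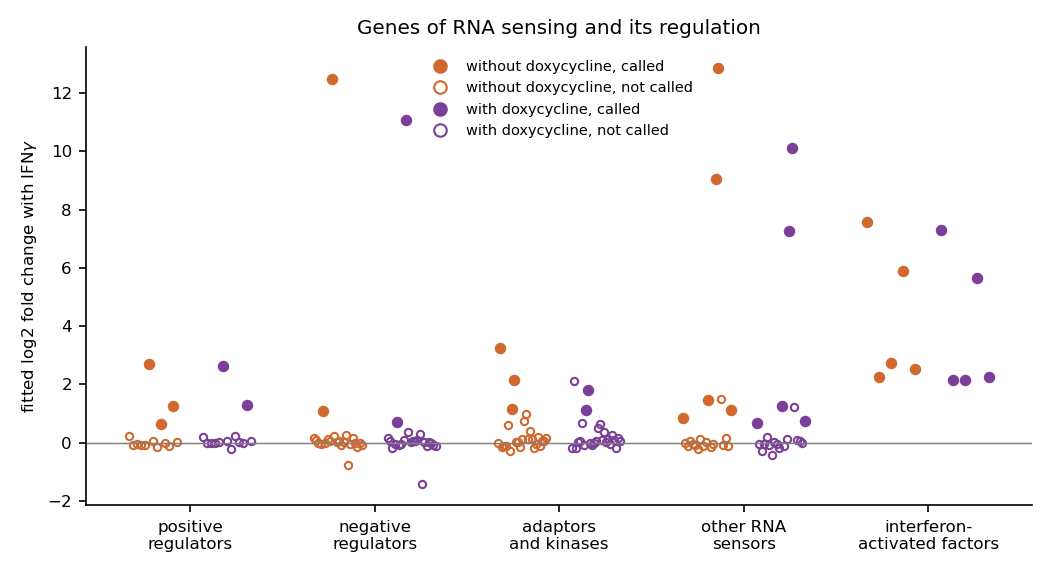
Fitted log2 fold change with IFNγ of the 85 tested genes of RNA sensing, by list, without and with doxycycline. Filled points passed an adjusted p under 0.05 in edgeR; all 18 and 16 filled points are above 0, and the points above 9 (NLRC5, OAS1 and OAS3) are genes with almost no counts before IFNγ, whose fitted size depends on the small count that edgeR adds.

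None of 13 interferon and cytokine genes, the outputs of the pathway, passed the filter, and 12 of them had at most 3 counts in every library. IFNB1 and IFNL1 had no count in any of the 12 libraries, which allows at most 0.187 CPM in each, and CXCL10 had 1 count over the IFNγ libraries and 3 over the libraries with both agents. By qPCR and ELISA the paper measured CXCL10 in SK-N-DZ and reports less of it with ARID1A knockdown under IFNγ. The highest count of any of the 13 in a library was 6, for TNF in the control.

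The genes whose pattern was nearest to a member over the 12 libraries were found by the root mean square difference of log2 CPM after each gene's mean was removed. For RIGI they were IL18BP (0.468), DIO2 (0.469), UBE2L6 (0.51), TRIM56 (0.51) and CSF1 (0.514). IL18BP, a secreted inhibitor of the cytokine IL-18, was at 7.12 CPM in the control, 8.96 CPM with doxycycline, 113 CPM with IFNγ and 53.0 CPM with both. TRIM56 and CSF1 shared the rise of RIGI but were at the same level or higher with both agents (58.0 against 49.7 CPM for TRIM56, 38.7 against 37.5 CPM for CSF1). For IFIH1 the nearest were IRF1 (0.497), PSMB8-AS1 (0.533) and PARP14 (0.534), and for DDX60 they were OAS3 (0.405), IFI35 (0.542) and GBP1P1 (0.56). PSMB8-AS1 overlaps other genes on the opposite strand and the strand setting of the counting is not given, and GBP1P1 is a pseudogene that can share reads with its relatives, so both values are uncertain. All of these genes had higher means in both IFNγ groups than in both groups without it.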

How the data were processed

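RNA-sequencing of the SK-N-DZ clone gave 12 libraries, 3 for each of the 4 treatments, grouped by their labels. The authors deposited raw counts per gene (43769 genes, total RNA, paired-end Illumina reads). The aligner, counter, strand setting and genome build are not given in the sources used here. All 43769 gene IDs occur in GENCODE 29 (GRCh38), which was used for positions and lengths. The authors' comparison tables hold log2 fold changes and p-values of their own, per the file headers and labels from DESeq2, and were not used, nor were 18 per-library columns that the labels do not explain.

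Counts were filtered with filterByExpr (minimum count 10, 15828 genes left), scaled by TMM and compared in edgeR 4.0.16 (with R 4.3.3 and limma 3.58.1) by a two-sided quasi-likelihood test with all groups in one model, with Benjamini-Hochberg adjustment over all tested genes. A gene is called at an adjusted p under 0.05. CPM divides counts by the TMM-scaled library size. A fold against a group with no count is a lower bound, the mean CPM over the highest CPM that 3 counts give in a library of that group. With 3 libraries against 3 an exact permutation test cannot go below p = 0.1, so it was not used for calls. The code was tested on simulated counts first. Alternatives were DESeq2 1.42.0, other scalings, no filter, only the groups compared, a replicate block and libraries left out. Python 3.11.15 computed the rest, and promoter windows came from RefSeq. Libraries of a group differed by more than counting noise (chi-square per gene 18.6 to 82.2).

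The replicate numbers of the labels were checked for pairing: after removal of group means, libraries with the same number correlated at 0.338 to 0.804 (18 pairs) and those with different numbers at -0.628 to 0.143 (36 pairs). The numbers thus pair the libraries. Values with the block stand beside the results for ARID1A, the tested members and the counts of list genes where it changes calls. For single list genes only the fit without the block is given.

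The genes, lists and tests were chosen with earlier results of these data known. Genes named were the 7 members and ARID1A, up to 3 called genes per list with the largest log2 fold change and a mean of at least 1 CPM, TRIM25, RNF135, TICAM1, UNC93B1, IFNB1, IFNL1, STAT2, IRF9 and IRF1, and the nearest patterns (5 genes for RIGI, 3 each for IFIH1 and DDX60, of at least 1 CPM). Some genes of the lists are not reported here. IRF2, CXCL10 and TNF were added after their values were seen. Marker lists covered adrenergic neuroblastoma, leukocytes, endothelium, epithelium, and fibroblasts with Schwann cells. A comparison of protein sequences was not done.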

Additional observations from a re-analysis of the deposited data

How the results depend on the processing

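RIGI was chosen on these values and is left out of the calls of members given here. Calls of genes that entered through their IFNγ libraries are given to show how calls move and not as support. With IFNγ, IFIH1, DHX58, DDX60 and DDX60L were called in edgeR in each arm. The replicate block gave 953 genes called in place of 350 with IFNγ, 706 in place of 273 with IFNγ under doxycycline, 1658 in place of 106 for both agents against IFNγ, and 2200 in place of 194 for doxycycline against control. Under the block the lists had 12 and 8 calls in place of 0 in the last 2 comparisons. Beyond the calls named in the report it changed no other call of a tested member. DESeq2 called 530, 460 and 649 genes with IFNγ, for both agents against IFNγ and for doxycycline, with 1 and 2 list genes in the last 2. Fitted on the groups compared alone, both agents against IFNγ gave 0 genes in edgeR (1508 at an unadjusted p under 0.05), and doxycycline gave 16 genes. With no filter, doxycycline gave 119 genes. DESeq2 called TLR3 with IFNγ in both arms (adjusted p = 0.000282 and 0.000238), as did edgeR without doxycycline with no filter (0.0488) and with doxycycline in the groups compared alone (0.0397), and the call of DDX60L for both agents against doxycycline was lost in the groups compared alone (adjusted p = 0.0628). The cause of these shifts was not tested.

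Leaving out 1 library at a time gave 35 to 96 genes for both agents against IFNγ. For doxycycline it gave 42 to 195 genes and 0 to 1 list genes. With IFNγ under doxycycline it gave 13 to 17 list genes among 210 to 279 genes called. DDX60 was called for both agents against IFNγ in 7 of these 12 models. IFIH1 and DDX60 were called with IFNγ in all 12 in each arm. DHX58 was called in 12 without and 9 with doxycycline, DDX60L in 9 and 12, and TLR3 in 1 and 1. The lowest gene counts for both agents against IFNγ and for doxycycline were those without IFNγ replicate 2 (35) and without control replicate 3 (42). The difference of responses ran from -2.37 to -0.48 for DHX58 and from -0.13 to 0.0049 for MAVS. Directions turned for values near 0: both agents against IFNγ from -0.94 to 0.13 for DDX60L, -0.17 to 0.23 for DHX58 and -0.57 to 0.99 for TLR3, and IFNγ from -0.069 to 0.052 for MAVS. The TLR3 value was also 0.093 by library size alone, 0.0050 with no filter, 0.47 with the replicate block and 0.0036 in the groups compared alone.

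Leaving out all 4 libraries of a replicate number was chosen after seeing the data. With IFNγ it gave 127 to 247 genes without doxycycline, and 98 to 215 genes with 9 to 12 list genes among them under doxycycline. IFIH1 and DDX60 were called with IFNγ in all 3 of these models in each arm, DHX58 and DDX60L in 1 and TLR3 in 0. Both agents against IFNγ gave 0 to 38 genes and doxycycline gave 0 to 100 genes. The counts of 0 genes were those of edgeR without number 1, with 946 and 1036 genes at an unadjusted p under 0.05. The DDX60 difference between the IFNγ groups was -1.36 to -1.27 in these models, with adjusted p from 0.0983 to 0.511. Without number 1 MAVS changed by 0.062 and 0.016 with IFNγ and TLR3 by 0.14 between the IFNγ groups, without number 3 TLR3 by 0.47, and DHX58 by -0.042 without number 2 and -0.15 without number 3. The DHX58 difference of responses was -2.56 without number 3.

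Depth limits TLR3, DHX58 and DDX60L most, the members with the lowest levels with IFNγ.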
